A study of Mus musculus with 40 samples.

Results

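The genes described here are 36 mouse genes of lysosomal enzymes and lysosomal membrane proteins, taken by gene symbol from 4 tables of normalized read counts that list 20078 genes in all. They comprise 12 proteases, 7 glycosidases, 5 enzymes and carriers of lipids, 7 membrane proteins, 3 subunits of the proton pump and 2 regulators. No cutoff on a measured value chose them, but they were chosen with earlier results of these data known. All 36 were listed in each of the 4 tables, and 34 passed the filter on low values (a mean of 10 normalized counts) in female fat, 36 in male fat, 32 in female liver and 33 in male liver.

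Liver and gonadal fat (gonadal white adipose tissue, gWAT, which lies against the ovaries or testes) came from C57BL/6J offspring with paternal exposure to nicotine or to a control, named DMSO in the headers of the tables. The groups were nicotine and control gWAT of females, nicotine and control gWAT of males, nicotine and control liver of females, and nicotine and control liver of males. All animals carried the same C57BL/6J background and no transgene or drug of their own is named in the labels, which also give no age, dose or number of fathers. The labels list 40 samples, 5 in each of the 8 groups, under 1 batch number, and 39 library columns were analysed, with 4 columns for male gWAT controls. Libraries are numbered as in the tables; those of the 4 male gWAT control columns could not be tied to single labelled samples.

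Polyadenylated RNA was read by 3′-tag sequencing, in which reads come from near the end of each transcript, so levels were compared between samples and not between genes. Depth was 1543208 to 2239073 reads assigned to genes per library. Nothing in the labels ties a sample to an animal, a litter or a father, and the p-values therefore cover the spread between these samples alone, part or all of which may be technical. Levels are given as DESeq2 normalized counts. A log2 change is the nicotine mean minus the control mean of log2(normalized count + 1), a scale that shrinks the changes of weakly expressed genes, and adjusted p-values are from limma with Benjamini-Hochberg adjustment over all genes tested in a table. A gene rose or fell where the adjusted p was below 0.05.

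Lysosomes are acidic organelles in which proteins, glycans and lipids from endocytosis, phagocytosis and autophagy are broken down. A proton pump in their membrane keeps the lumen acidic, soluble hydrolases do the digestion, and membrane proteins protect the boundary and export the products. Macrophages carry many lysosomes. In fat, lysosomes of adipocytes and of resident macrophages take part in lipid turnover, and in liver they serve cholesterol and glycogen handling and the degradation of plasma proteins.

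The gWAT libraries held all 6 adipocyte markers (Adipoq, Plin1, Cidec, Lep, Retn and Cfd), whose normalized counts summed to 15408 to 81043 per library, and the liver libraries held all 6 hepatocyte markers (Alb, Apoa1, Ttr, Serpina1c, Fgb and Tat), which summed to 54100.3 to 93223. Several libraries stood apart through transcripts of neighbouring tissues. Female gWAT control 2 held skeletal muscle transcripts (a sum of 18966 over 5 markers). Female gWAT control 4 held transcripts of the ovary and uterus list (382 over Ovgp1 and Hoxa11, the 2 markers listed). The other markers of that list, Inha, Cyp19a1 and Amh, were not listed for female gWAT. Male gWAT nicotine 1 and control 1 held the most epididymal transcripts (24624 and 34186 over 5 markers). The other male gWAT libraries held 2248 to 9416 with nicotine and 41.9 to 5574 in controls. All 5 epididymal markers had a higher nicotine mean (log2 changes 1.58 to 3.16), and none passed. Male gWAT nicotine 1 also held hepatocyte transcripts (3399 over 6 markers, against 208 to 706 in the other male gWAT libraries). In male liver, pancreatic transcripts were high in nicotine 2 (7795) and muscle transcripts in nicotine 4 (4862).

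In gWAT of females with paternal nicotine exposure, 14 of the 34 genes tested fell, 1 rose and 19 did not pass. Over all 10532 genes tested in that tissue, 12.8% fell and 12.4% rose. The lowest and highest values of the 2 groups did not overlap for 12 of the 34, with 11 lower and 1 higher, against 8.19% of all genes lower and 8.48% higher. The mean was lower in 30 of 34, and their median log2 change was -0.56, beside -0.03 over all genes. Psap and Laptm4a fell the most in normalized counts, whereas Npc1 was the gene that rose.

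The sum over the 36 genes was 10094 to 12695 normalized counts in nicotine libraries, against 23868 to 30886 in control libraries. They took 0.437% to 0.656% of all reads in nicotine libraries and 1.48% to 1.89% in controls. Psap and Laptm4a together made 2617 to 3849 normalized counts in nicotine libraries, against 10781 to 17062 in controls, a mean 5.01-fold higher in controls. The other 34 genes summed to 7279 to 8847 in nicotine libraries and 9314 to 14098 in controls, a mean 1.5-fold higher in controls. The difference was unevenly spread, with the larger part of it in 2 genes.

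**Figure D1:**
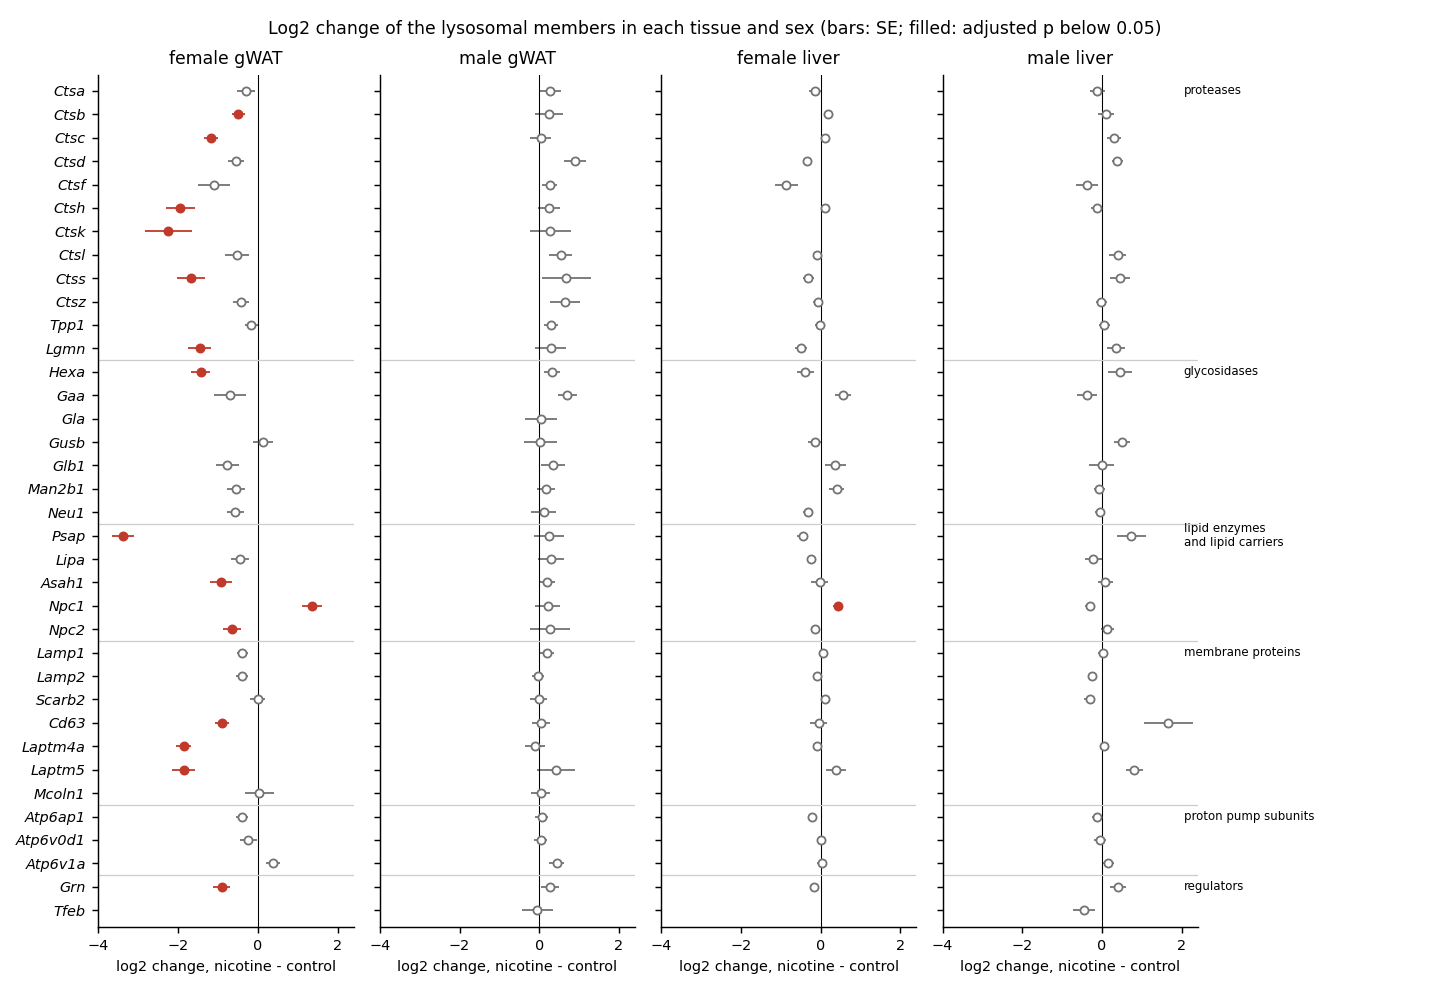
Log2 change (nicotine minus control, with its standard error) of each of the 36 genes in female gWAT, male gWAT, female liver and male liver, 1 panel each; filled points have an adjusted p below 0.05. In female gWAT the filled points reach -3.38 (Psap), Npc1 stands alone to the right at 1.36, and the male panels hold no filled point.

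All 12 proteases had a lower mean in nicotine female gWAT, and 6 of them fell. Ctsc, the dipeptidyl peptidase that activates granule serine proteases, had 111, 142, 136, 147 and 181 normalized counts in nicotine libraries 1 to 5, against 325, 268, 256, 373 and 406 in control libraries 1 to 5. Every nicotine library lay below every control, and the log2 change was -1.17 (SE 0.178, adjusted p = 0.000616). Ctsh, a cathepsin with aminopeptidase activity, had 56.2, 18.1, 43.6, 19.2 and 60.9 in nicotine libraries and 126, 144, 88.2, 255 and 123 in controls. The groups were again separate, with control 4 the highest, and the log2 change was -1.95 (SE 0.358, adjusted p = 0.00194).

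Lgmn, the asparaginyl endopeptidase legumain, had 55.0, 24.2, 29.1, 21.6 and 30.0 normalized counts in nicotine libraries, against 70.6, 66.9, 58.5, 130.1 and 124 in controls. Nicotine 1 came close to the lowest control without reaching it (log2 change -1.46, SE 0.287, adjusted p = 0.00277). Ctss, the cathepsin of antigen-presenting cells that trims the invariant chain, had 118, 55.5, 89.1, 66.1 and 198 in nicotine libraries and 217, 233, 245, 693 and 316 in controls. Control 4 stood far above the other controls, and all nicotine libraries lay below all controls (log2 change -1.68, SE 0.355, adjusted p = 0.00422).

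Ctsk, a collagen-degrading cathepsin, had 28.7, 7.25, 6.36, 1.20 and 17.8 normalized counts in nicotine libraries, against 30.4, 34.8, 24.5, 69.6 and 88.6 in controls. Nicotine 1 lay within the control range, and Ctsk fell by 2.25 on the log2 scale (SE 0.586, adjusted p = 0.0133). Its adjusted p was 0.0604 without controls 2 and 4, the 2 libraries with muscle transcripts and with those of the ovary and uterus list. Ctsb, an abundant lysosomal cysteine protease, had 836, 1014, 1210.2, 1094 and 1237 in nicotine libraries and 1720.0, 1226, 1463, 1722 and 1453 in controls. Nicotine 5 exceeded control 2, and the log2 change of -0.49 (SE 0.165, adjusted p = 0.0411) was near the threshold. The Ctsb call was lost when any 1 of controls 1, 3, 4 and 5 or nicotine libraries 1, 2 and 4 was left out, with adjusted p up to 0.105 over the alternatives.

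The 6 proteases that did not pass had log2 changes of -1.09 to -0.17. Ctsd, the main lysosomal aspartic protease, had 400.1, 651, 966, 582 and 546 normalized counts in nicotine libraries, against 944, 751, 970.4, 894 and 894 in controls. Nicotine 3 lay among the controls, and the log2 change was -0.56 (adjusted p = 0.0583). Ctsf averaged 17.2 ± 10.8 in nicotine and 32.8 ± 8.89 in control libraries (SD, n = 5 each; adjusted p = 0.0617). Ctsl averaged 903 ± 145 in nicotine libraries and 1442 ± 766 in controls, where controls 4 and 5 were high at 2194 and 2345 (adjusted p = 0.214). Ctsa, Ctsz and the tripeptidyl peptidase Tpp1 had log2 changes of -0.30, -0.42 and -0.17.

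Of the 7 glycosidases, 6 were tested in female gWAT, 5 had a lower mean and 1 fell. This was Hexa, the alpha subunit of the hexosaminidase that degrades gangliosides, with 63.1, 66.4, 101, 50.5 and 108 normalized counts in nicotine libraries, against 195, 146, 184, 287 and 234 in controls. Every nicotine library was below every control (log2 change -1.44, SE 0.236, adjusted p = 0.000956). Glb1, the lysosomal beta-galactosidase, had 24.1, 12.1, 30.0, 12.0 and 29.1 in nicotine libraries and 37.2, 29.3, 27.9, 39.4 and 41.4 in controls, and did not pass (log2 change -0.77, adjusted p = 0.066). Man2b1, the lysosomal alpha-mannosidase, had 19.5, 26.6, 31.8, 25.2 and 26.3 in nicotine libraries and 37.2, 30.2, 42.8, 28.4 and 57.1 in controls, and did not pass either (log2 change -0.55, adjusted p = 0.0944). Nicotine 3 and 5 exceeded the lowest control of Glb1, and nicotine 3 exceeded the lowest control of Man2b1. Neu1, the sialidase, had a log2 change of -0.57 (adjusted p = 0.0582), Gaa, which degrades glycogen, -0.70 (adjusted p = 0.219), and Gusb, the beta-glucuronidase, 0.13 (adjusted p = 0.735). Gla, the alpha-galactosidase, was below the filter.

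The 5 enzymes and carriers of lipids moved in both directions in female gWAT. Psap, at chr10:60277627-60302597 on the plus strand (GRCm38), encodes the precursor of the saposins, small proteins that present sphingolipids to their hydrolases. It had 668, 558, 926, 305 and 840.1 normalized counts in nicotine libraries, against 7393, 6886, 7722, 6626 and 4226 in controls. The highest nicotine library lay far below the lowest control, control 5, and the control mean was 9.96-fold the nicotine mean. The log2 change was -3.38 (SE 0.277, adjusted p = 2.27e-05).

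Npc1, the membrane protein that exports cholesterol from the lysosome, had 87.1, 67.6, 44.6, 55.3 and 52.5 normalized counts in nicotine libraries, against 18.6, 23.8, 21.8, 15.6 and 39.8 in controls. All nicotine libraries lay above all controls, and Npc1 rose by 1.36 on the log2 scale (SE 0.261, adjusted p = 0.00244). Npc2, the soluble protein that hands cholesterol to the Npc1 protein, had 673, 907, 976, 861 and 752 in nicotine libraries and 1796, 725, 1632, 1315 and 1356 in controls. Control 2 lay inside the nicotine range, and the log2 change was -0.66 (SE 0.224, adjusted p = 0.0443). The Npc2 call was lost when any 1 of controls 1, 3, 4 and 5 or nicotine libraries 1, 2, 4 and 5 was left out, with adjusted p up to 0.103 over the alternatives.

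Asah1, the acid ceramidase, had 43.6, 31.4, 37.3, 16.8 and 21.6 normalized counts in nicotine libraries, against 38.2, 75.1, 55.9, 66.0 and 46.4 in controls. Nicotine 1 exceeded control 1, and the log2 change was -0.92 (SE 0.273, adjusted p = 0.0248). The Asah1 call was lost without control 2, control 4, nicotine 4 or nicotine 5, with an adjusted p of 0.158 when controls 2 and 4 were both left out. Lipa, the acid lipase that hydrolyses cholesteryl esters and triglycerides, did not pass (log2 change -0.44, adjusted p = 0.167).

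Of the 7 membrane proteins, 3 fell in female gWAT. Laptm4a, at chr12:8921664-8938742 on the plus strand (GRCm38), encodes a multi-pass protein of late endosomes and lysosomes. It had 2146, 2059, 2922, 2322 and 2596 normalized counts in nicotine libraries, against 9669, 8269.8, 9315, 10162 and 6555 in controls. The groups were far apart, with control 5 again the lowest control, and the log2 change was -1.86 (SE 0.188, adjusted p = 5.11e-05). Laptm5, a related protein of blood cells, had 90.6, 42.3, 79.1, 46.9 and 119 in nicotine libraries and 183, 221, 226, 433 and 283 in controls. The groups did not overlap (log2 change -1.86, SE 0.292, adjusted p = 0.000728). Cd63, a tetraspanin of late endosomes and secretory lysosomes, had 483, 469, 766, 663 and 621 in nicotine libraries and 1036, 1004, 1031, 1307 and 1178 in controls. The nicotine libraries were all lower (log2 change -0.91, SE 0.17, adjusted p = 0.00214).

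The heavily glycosylated proteins Lamp1 and Lamp2, which line the lysosomal membrane, were lower by a smaller margin and did not pass. Lamp1 had 609.9, 740.2, 756, 641 and 833 normalized counts in nicotine libraries, against 1014, 905, 879, 978 and 887 in controls. Its groups did not overlap, but the log2 change was -0.39 (SE 0.143, adjusted p = 0.0602). Lamp2 ranged over 638 to 794 in nicotine libraries and 817 to 1133 in controls, also without overlap (log2 change -0.39, adjusted p = 0.0628). Scarb2, the receptor that carries glucocerebrosidase to lysosomes, had a log2 change of -0.01, and Mcoln1, a lysosomal calcium channel, one of 0.03.

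None of the 3 proton pump subunits passed in female gWAT. Atp6ap1, an accessory subunit, had a log2 change of -0.39 (adjusted p = 0.0763), and Atp6v0d1, of the membrane sector, one of -0.25 (adjusted p = 0.424). Atp6v1a, the catalytic subunit, had one of 0.39 (adjusted p = 0.116). Grn, which encodes progranulin, a regulator of lysosomal enzyme activity, had 164, 112, 133, 102 and 120.0 in nicotine libraries and 228, 149, 209.6, 319 and 306 in controls. Nicotine 1 exceeded control 2, and the log2 change was -0.90 (SE 0.213, adjusted p = 0.00784). With the dependence of each library on transcript length and GC content removed, the adjusted p of Grn was 0.0554 and that of Npc2 was 0.0940. Tfeb, a transcription factor of lysosomal genes, was below the filter in female gWAT.

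**Figure D2:**
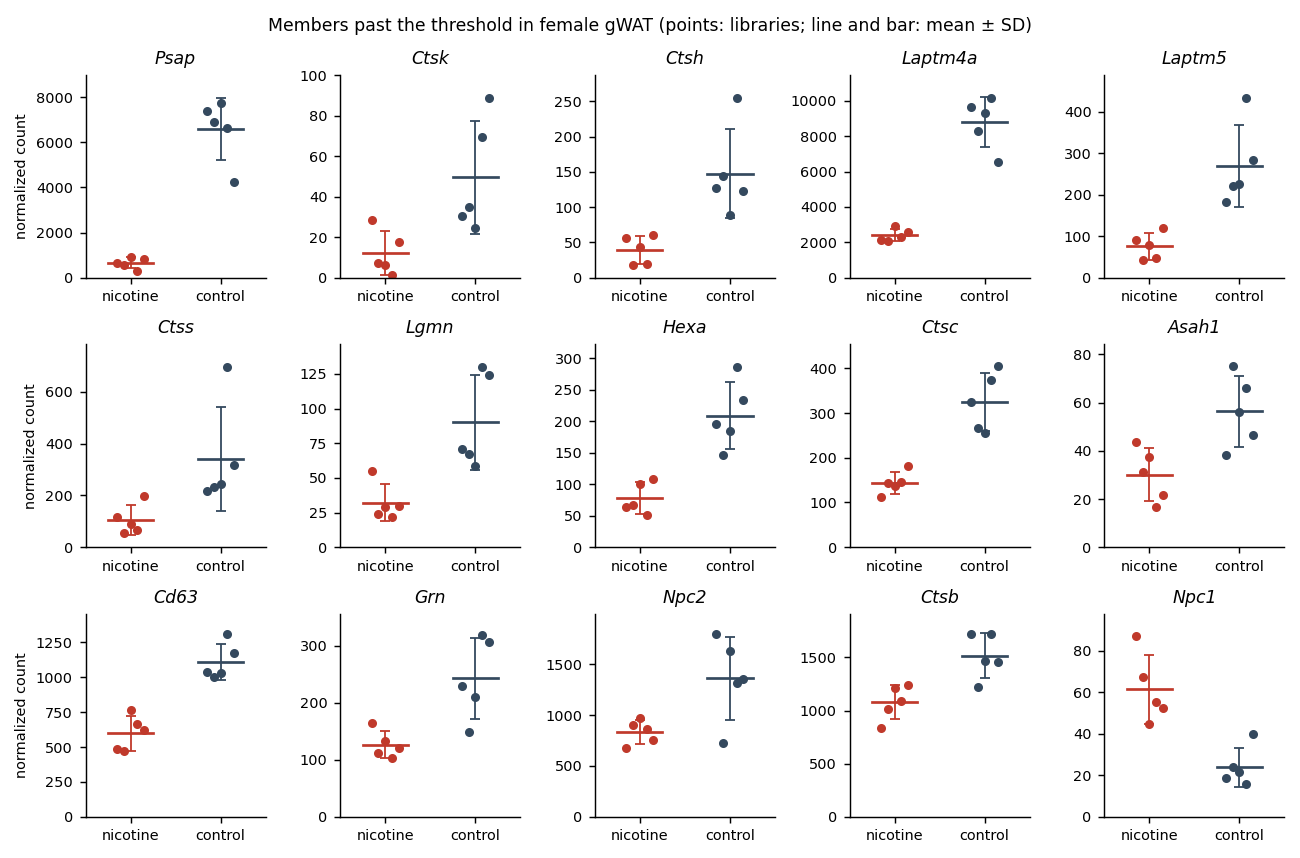
Normalized counts of the 15 genes that passed in female gWAT, 1 point per library, nicotine left of control, with bars for mean and SD. The groups overlap for Ctsk, Ctsb, Asah1, Grn and Npc2 and are separate for the other 10 genes, of which Npc1 is higher in nicotine libraries.

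In the authors' deposited table for female gWAT, 18 of the 36 genes had an adjusted p below 0.05, with 17 lower and 1 higher. These included all 15 named above. The others were Lamp1 (authors' adjusted p = 0.0178), Lamp2 (0.0190) and Neu1 (0.0441), all lower, which did not pass with limma. That table had 9.97% of 15321 genes lower and 8.97% higher. The size of the drop depended on how libraries were scaled. With scaling to each library's total reads (CPM) in place of DESeq2 size factors, 27 of the 34 genes passed, 26 of them lower, against 25.8% of all genes lower and 4.62% higher. The median log2 change of the 34 was -0.90. That scaling also moved the median of all genes to -0.35, and 84.8% of all genes called were then lower, against 50.9% with the deposited normalization.

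Markers of some other cell types and of RNA composition moved with these genes in female gWAT. Of 12 macrophage markers 10 were tested and 9 fell, none was at 0 throughout, and their summed level was 297 to 608 in nicotine libraries and 1014 to 2085 in controls. Of 6 fibroblast markers 4 fell (sums of 1966 to 6275 in nicotine libraries and 4578 to 8877 in controls), and of 5 mesothelial markers 3 fell. Of 6 adipocyte markers 1 rose, Plin1, and the sums overlapped, at 20322 to 39363 in nicotine libraries and 24120.5 to 81043 in controls. None of 5 endothelial markers passed (sums of 922 to 1647 in nicotine libraries and 637 to 1378 in controls). None of 5 skeletal muscle markers or of the 5 hepatocyte markers tested passed either. Mitochondrially encoded transcripts took 19.3% to 32.5% of reads in nicotine libraries and 8.23% to 13.0% in controls, and ribosomal protein genes took 1.01% to 2.01% in nicotine libraries and 2.37% to 4.57% in controls. The part of any of these in the lower lysosomal transcripts was not tested. In bulk tissue, fewer cells of a type and less RNA per cell cannot be told apart.

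The order of the control libraries differed between genes. Of the genes that fell, Ctsb, Ctsh, Ctss, Lgmn, Hexa, Cd63, Laptm4a, Laptm5 and Grn were highest in control 4. That library had the highest macrophage marker sum (2085). Ctsc and Ctsk were highest in control 5, Psap in control 3, Asah1 in control 2 and Npc2 in control 1. Psap and Laptm4a were lowest in control 5, where the macrophage marker sum was 1757.

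**Figure D3:**
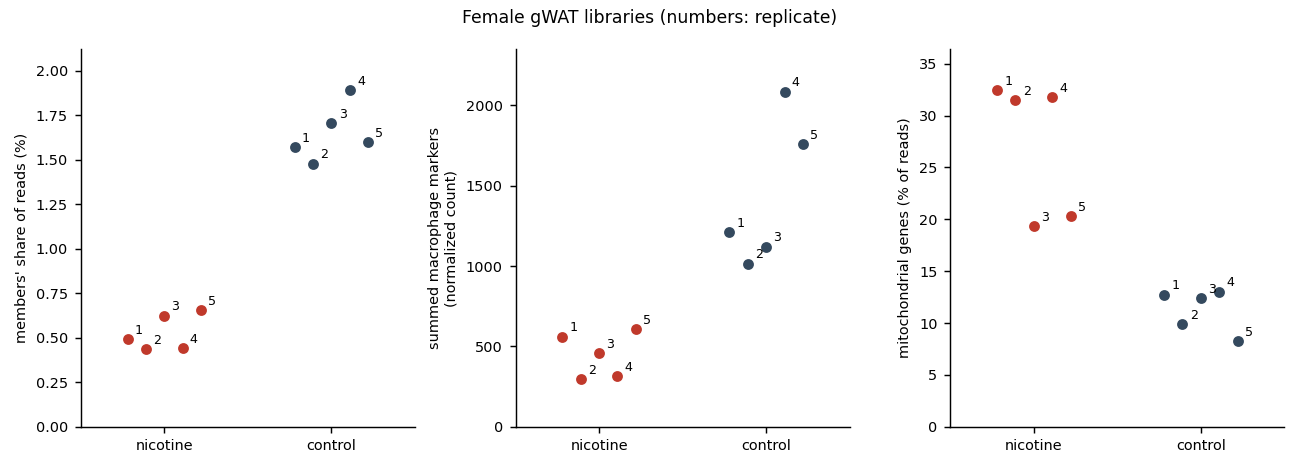
Per library of female gWAT, nicotine left of control, the share of reads taken by the 36 genes (percent), the summed normalized counts of 12 macrophage markers and the share of reads from mitochondrially encoded genes (percent). The groups are separate in each panel, with the first 2 quantities lower and the third higher in nicotine libraries.

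The promoters of these genes were searched for the E-box CACGTG, the core of the element through which Tfeb and its relatives act on lysosomal genes. RefSeq promoter windows (GRCm38.p6, 250 bases before to 50 after a RefSeq start of the gene) were matched for 32 of the 36 genes. Only the 250 bases before the start were searched. CACGTG reads the same on both strands, and so does TCACGTGA, which contains it. The core was present in 11 of 32 (34.4%), against 1249 of 13761 genes of the 4 tables with a window (9.08%). TCACGTGA was present in 5 (15.6%), namely Ctsa, Ctsd, Gla, Mcoln1 and Atp6v1a, against 1.47% of all. Of the 14 genes that fell in female gWAT, 11 had a window and 1 of these, Lgmn, held CACGTG. Of the 19 that did not pass, all 19 had a window and 9 held it. A match is a description of these letters in this window. By GENCODE positions, the stretches printed for Lgmn, Ctsd and Atp6v1a lie inside the gene, so their windows precede starts within it. That of Mcoln1 spans the first base of the gene. Lgmn had 2 windows. The stretches below show Lgmn, the 1 gene that fell with a match, and 4 that did not pass, with capitals marking 1 CACGTG in each; Lamp1 and Mcoln1 hold further copies in lower case.
Lgmn (chr12:102439099-102439178, minus strand): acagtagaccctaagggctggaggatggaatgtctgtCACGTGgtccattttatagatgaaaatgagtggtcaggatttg
Ctsd (chr7:142387883-142387962, minus strand): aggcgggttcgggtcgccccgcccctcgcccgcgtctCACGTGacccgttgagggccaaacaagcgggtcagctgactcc
Lamp1 (chr8:13159063-13159142, plus strand): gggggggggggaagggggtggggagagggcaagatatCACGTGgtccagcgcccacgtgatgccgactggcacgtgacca
Mcoln1 (chr8:3500437-3500516, plus strand): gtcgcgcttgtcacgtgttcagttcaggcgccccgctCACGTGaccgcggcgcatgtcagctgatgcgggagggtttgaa
Atp6v1a (chr16:44139348-44139427, minus strand): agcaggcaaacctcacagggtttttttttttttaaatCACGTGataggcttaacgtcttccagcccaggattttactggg

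A further 79 lysosomal genes were read from a list of hydrolases, membrane proteins, pump subunits and sorting factors. In female gWAT 69 were tested, of which 13 fell, 9 rose and 47 did not pass, with a median log2 change of -0.12. The shares over all genes were 12.8% lower and 12.4% higher, and the number that rose was near that share. Among the other hydrolases 7 of 26 fell, among them Ppt2, Fuca1, Ifi30, Idua, Hgsnat and Plbd2, and 2 rose (Acp2 and Gm2a).

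Among 13 other pump subunits 3 fell and 3 rose. Atp6v0b, of the membrane sector, had 64.0 to 94.6 normalized counts in nicotine libraries, against 169.8 to 244 in controls (log2 change -1.32, adjusted p = 0.000165). Atp6v1d, of the catalytic sector, had 117 to 202 in nicotine libraries and 70.4 to 109 in controls (log2 change 0.86, adjusted p = 0.00557). Subunits of 1 complex thus moved in opposite directions without overlap of the groups. Atp6v1b2 and Atp6ap2 fell and Atp6v0a2 and Atp6v1c1 rose. Of 19 other membrane proteins Lamtor4, Lamtor2 and Litaf fell, and Lamtor1 was among those that rose. Of 11 sorting factors and regulators none fell, Sort1 rose, and Zkscan3, a repressor of autophagy genes, rose by 1.02 on the log2 scale (49.3 to 80.5 in nicotine libraries and 21.6 to 43.1 in controls, adjusted p = 0.00478).

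In gWAT of males, no lysosomal gene passed. limma called 0 of 36, where 0% of the 11210 genes tested were called in either direction, and edgeR and DESeq2 on the recovered reads also called 0 of the 36. At an unadjusted p below 0.05 there were 3 of 36, against 1.62% of all genes. The mean was higher in nicotine libraries for 32 of the 36, with a median log2 change of 0.25, beside 0.01 over all genes.

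The smallest p-values in male gWAT belonged to Ctsd and Gaa. Ctsd had 778, 649, 1491, 1131 and 1539 normalized counts in nicotine libraries, against 449, 567, 669 and 606 in controls. Nicotine 2 overlapped the controls (log2 change 0.90, SE 0.282, adjusted p = 1.0). Gaa had 50.6, 32.0, 33.9, 46.2 and 49.3 in nicotine libraries and 32.6, 17.3, 27.0 and 26.0 in controls, and its log2 change was 0.71 (SE 0.242, adjusted p = 1.0). Nicotine 2 lay just below the highest control. Atp6v1a ranged over 228 to 359 in nicotine libraries and 179 to 227 in controls, without overlap (log2 change 0.44, adjusted p = 1.0), where 0.339% of all genes had all nicotine libraries above all controls.

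A single library carried the highest values of several proteases in male gWAT. Nicotine 3 had 3067 normalized counts of Ctss, against 256 to 562 in the other nicotine libraries and 236 to 477 in controls. It also had the highest Ctsl (3337), Ctsk (145), Lgmn (395) and Lipa (162). The same library had a summed level of lipid-associated macrophage markers (Trem2, Gpnmb, Cd9, Spp1 and Itgax) of 3725, against 96.0 to 354 in the other nicotine libraries and 147 to 325 in controls. Such a sum can rest on a few markers. Between the groups, 4 of the 5 markers had a higher nicotine mean and 1 a lower one (log2 changes -0.01 to 1.76). Without nicotine 3 and the 2 libraries richest in epididymal transcripts, the log2 change of Ctss was 0.06 in place of 0.68, and the median over the 36 genes was 0.11. Npc2 was highest in those 2 libraries, at 3926 in nicotine 1 and 4514 in control 1, against 1012 to 2359 in the other nicotine libraries and 920.4 to 1348 in the other controls. The part of macrophages or epididymis in these values was not tested.

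In female liver, 1 of the 32 genes tested rose and none fell. Over the 9173 genes tested, 1.61% rose and 1.67% fell, 3.28% in all. Means were higher in nicotine libraries for 12 and lower for 20, and the median log2 change was -0.08. At an unadjusted p below 0.05 there were 10 of 32, against 17.6% of all genes. Npc1 was the gene that rose, with 258, 302, 227, 289 and 239.7 normalized counts in nicotine libraries, against 167, 203, 224, 205 and 177 in controls. Every nicotine library was above every control, as for 2.25% of all genes, although nicotine 3 exceeded control 3 by a small margin (log2 change 0.43, SE 0.107, adjusted p = 0.0296). The Npc1 call was lost without control 1 (adjusted p = 0.0837), control 5 (0.0918), nicotine 2 (0.0736) or nicotine 4 (0.0775), and without control 4 and nicotine 5, which held muscle transcripts (0.0534).

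Psap, Lgmn, Ctsd and Ctsf had unadjusted p-values below 0.01 in female liver and did not pass. Psap had 356, 472, 367, 238 and 432 normalized counts in nicotine libraries, against 517, 451, 456, 524 and 541 in controls (log2 change -0.45, SE 0.136, adjusted p = 0.0777). Nicotine 2 was the 1 library of its group within the control range. Ctsd had 315, 327, 302, 229 and 325 in nicotine libraries and 330.1, 366, 448, 359 and 385 in controls, with every nicotine library below every control, as for 2.49% of all genes (log2 change -0.34, adjusted p = 0.0946). Lgmn had 44.2, 72.3, 68.7, 63.3 and 51.7 in nicotine libraries and 68.9, 81.0, 99.7, 73.2 and 98.3 in controls (log2 change -0.49, adjusted p = 0.0896). Ctsf had 14.7, 26.6, 5.37, 17.4 and 17.6 in nicotine libraries and 30.1, 26.0, 29.7, 28.5 and 23.7 in controls (log2 change -0.86, adjusted p = 0.114). Nicotine 2 was the highest nicotine library for Psap, Lgmn and Ctsf, and without it Psap (adjusted p = 0.0311) and Ctsf (0.0478) passed while Npc1 did not.

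In male liver, limma called 0 of 33 genes, against 0.0550% of the 9093 tested (0.0330% lower and 0.0220% higher). edgeR also called 0 of the 33, with 3 genes called in all. DESeq2 called 1 of the 33, with 186 genes called in all, so its count has a larger background than that of limma. At an unadjusted p below 0.05 there were 6 of 33, against 14.5% of all genes, and the median log2 change was 0.05. Laptm5, the gene DESeq2 called (adjusted p = 0.0385), had 76.5, 47.7, 44.0, 41.0 and 67.2 normalized counts in nicotine libraries, against 25.7, 34.8, 40.8, 25.4 and 26.9 in controls. Every nicotine library was above every control, as for 1.31% of all genes, whereas 1.85% had every nicotine library below and none of the 33 did (log2 change 0.81, SE 0.209, adjusted p = 0.142 with limma). Psap was the other gene without overlap, with 509.9 to 618 in nicotine libraries and 94.8 to 476 in controls, where control 3 was far below the others (log2 change 0.73, SE 0.358, adjusted p = 0.362). Ctsd had 483, 361, 368, 452 and 568 in nicotine libraries and 344, 328, 302, 329 and 381 in controls, with nicotine 2 and 3 below control 5 (log2 change 0.39, adjusted p = 0.251). Npc1 had 202, 188, 156, 139.5 and 183 in nicotine libraries and 199, 202, 230.5, 208 and 215 in controls, with nicotine 1 inside the control range (log2 change -0.29, adjusted p = 0.323).

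Nicotine libraries 1 and 5 of male liver stood apart in a group of these genes. Ctsl was 3052 and 3062 there, against 1529 to 1693 in the other nicotine libraries and 1405 to 1743 in controls. Ctss was 377 and 383, Grn 391 and 372, Lgmn 142 and 151, and Cd63 453 and 418, each above every control. Cd63 was also above every control in nicotine 4, at 142, against 29.4 to 67.2 in controls. In nicotine 1 and 5 the Kupffer cell markers summed to 464 and 428, against 222 to 348 in all other male liver libraries. The lipid-associated macrophage markers summed to 285 and 269 there, against 98.1 to 172. Such sums can rest on a few markers. Between the groups, the 5 Kupffer cell markers had log2 changes of -0.03 to 0.86, and none passed. In nicotine 1 and 5 the hepatocyte markers summed to 54100.3 and 55383, against 69968 to 86190.2. The fibroblast markers summed to 1601 and 1404, and to 1388 in nicotine 4, against 584 and 603 in the other nicotine libraries and 535 to 679.9 in controls. Without these 2 libraries the log2 change was 0.02 for Ctsl, 0.00 for Ctss, 0.08 for Grn and -0.04 for Lgmn, in place of 0.39, 0.45, 0.40 and 0.35. The part of cell composition in these values was not tested.

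**Figure D4:**
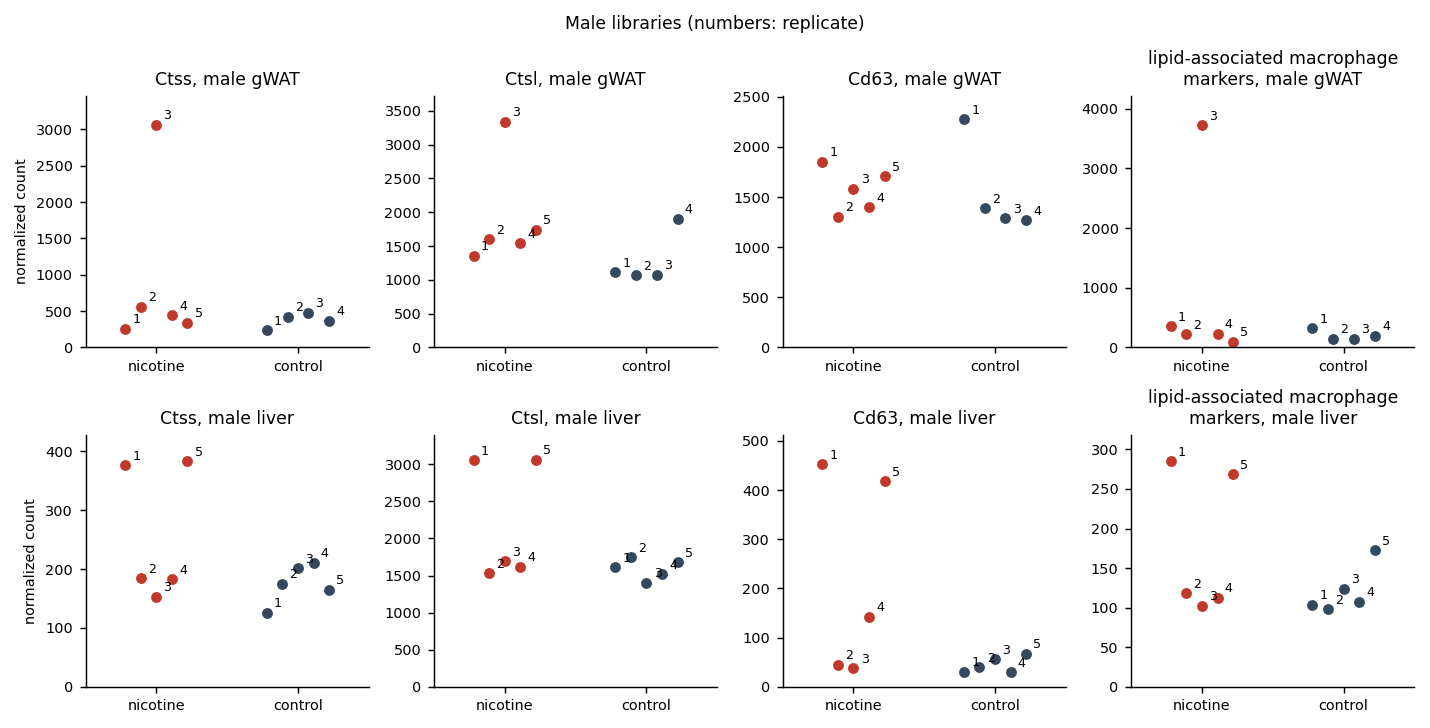
Per library of male gWAT and male liver, nicotine left of control, normalized counts of Ctss, Ctsl and Cd63 and the summed lipid-associated macrophage markers. Nicotine 3 stands alone at 3067 for Ctss in gWAT, and nicotine 1 and 5 stand above the rest for Ctsl in liver at 3052 and 3062.

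Of the further 79 lysosomal genes, none passed in male gWAT (72 tested), female liver (65) or male liver (65) with limma, where 2, 6 and 12 had an unadjusted p below 0.05, against 1.62%, 17.6% and 14.5% of all genes. The smallest p-values were those of Ctso and Gm2a in male gWAT (log2 changes 0.55 and 0.51, adjusted p = 1.0 for both). In female liver they were those of M6pr and Gnptg, which serve mannose-6-phosphate sorting of hydrolases, and in male liver those of M6pr and Lamtor3. M6pr had 72.3 to 103 normalized counts in nicotine and 38.8 to 71.3 in control female livers (log2 change 0.57, adjusted p = 0.0554). It had 58.9 to 112 in nicotine and 43.7 to 58.7 in control male livers (log2 change 0.65, adjusted p = 0.146).

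The exposure effect was then compared between gWAT and liver of females by an interaction term over the 4 female groups, with 32 of the 36 genes tested. The effect was more negative in gWAT for 14 and more positive for 1, against 8.42% and 11.0% of 8147 genes, and the median difference was -0.48, beside 0.04 over all genes. The differences in log2 change, gWAT minus liver, were -2.93 for Psap (SE 0.325, adjusted p = 3.24e-06), -2.25 for Laptm5 (adjusted p = 0.000702), -2.05 for Ctsh (adjusted p = 0.000881), -1.78 for Laptm4a (adjusted p = 2.08e-06) and -1.29 for Ctsc (adjusted p = 0.000201). In liver, Laptm4a had 842 to 1128 normalized counts in nicotine libraries, against 979 to 1122 in controls. Laptm5 had 33.3 to 80.6 in nicotine livers and 20.3 to 50.8 in control livers, and the groups overlapped for both, as they did for Ctsh and Ctsc. Ctss (-1.37), Hexa (-1.06), Lgmn (-0.97), Cd63 (-0.86), Grn (-0.75) and Ctsb (-0.68) also passed. Npc1 rose in both tissues, by 0.93 more in gWAT (SE 0.279, adjusted p = 0.0225).

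Glb1, Man2b1 and Lamp1 passed the interaction (differences -1.14, -0.96 and -0.45, adjusted p = 0.045, 0.0297 and 0.041) though they passed in neither tissue alone. In female liver Glb1 had 18.7, 18.1, 16.1, 10.9 and 23.8 normalized counts in nicotine libraries, against 8.74, 10.6, 15.3, 20.0 and 12.7 in controls. Man2b1 had 51.1, 79.9, 82.7, 62.2 and 63.0 in nicotine livers and 59.2, 38.6, 78.6, 41.8 and 41.9 in control livers. Their means were higher in nicotine livers and lower in nicotine gWAT. Psap, Laptm4a, Ctsc, Laptm5, Ctsh, Ctss and Ctsb passed the interaction in each of 26 alternatives, whereas Lamp1 was lost in 17, Lgmn in 16, Glb1 in 15, Grn in 9, Cd63 in 7, Man2b1 in 6 and Hexa and Npc1 in 1 each. The count was lowest, at 9, without female liver control 2. In males, 0 of 33 genes passed with limma or edgeR, against 0% of 8240 genes, and 2 had an unadjusted p below 0.05, against 4.95% of all.

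Between the sexes in gWAT, the effect was more negative in females for 11 of 34 genes and more positive for none, against 4.43% and 4.44% of 10042 genes, or 8.87% in all. The median difference, females minus males, was -1.005, beside -0.03 over all genes. Psap differed by -3.63 (SE 0.478, adjusted p = 0.000267), Laptm5 by -2.28 (adjusted p = 0.0182), Ctsh by -2.19 (adjusted p = 0.0105), Laptm4a by -1.76 (adjusted p = 0.00319), Hexa by -1.75 (adjusted p = 0.00381) and Ctsc by -1.21 (adjusted p = 0.0242). In males, Psap had 2124 to 7734 normalized counts in nicotine libraries, against 3161 to 4532 in controls, and Laptm4a had 5076 to 8946 in nicotine libraries and 5878 to 8339 in controls. The groups overlapped for both. Ctsd, which passed in neither sex alone, differed by -1.45 (SE 0.349, adjusted p = 0.0151), with a log2 change of -0.56 in females and 0.90 in males.

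Ctss (-2.36), Lgmn (-1.75), Grn (-1.17) and Cd63 (-0.95) also differed between the sexes in gWAT, but were lost in 17, 8, 5 and 12 of 24 alternatives. Psap, Laptm4a, Ctsc, Laptm5, Hexa, Ctsh and Ctsd passed in all 24. The count fell to 7 without female gWAT control 4, female gWAT nicotine 2, male gWAT control 2 or male gWAT control 3. The epididymal markers had higher means in male nicotine gWAT, and their part in these differences was not tested.

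In liver, 2 of 32 genes differed between the sexes, 1 each way, against 0.862% of 8699 genes higher and 0.701% lower, or 1.56% in all. Npc1 differed by 0.72 (SE 0.164, adjusted p = 0.0248), with a log2 change of 0.43 in females and -0.29 in males. Ctsd differed by -0.72 (SE 0.181, adjusted p = 0.0424), with -0.34 in females and 0.39 in males. The Npc1 difference was lost without female liver control 1, control 5 or nicotine 4 (adjusted p up to 0.0614). The Ctsd difference was lost in 16 of 25 alternatives, with an adjusted p of 0.103 without male liver nicotine 1 and 5.

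**Figure D5:**
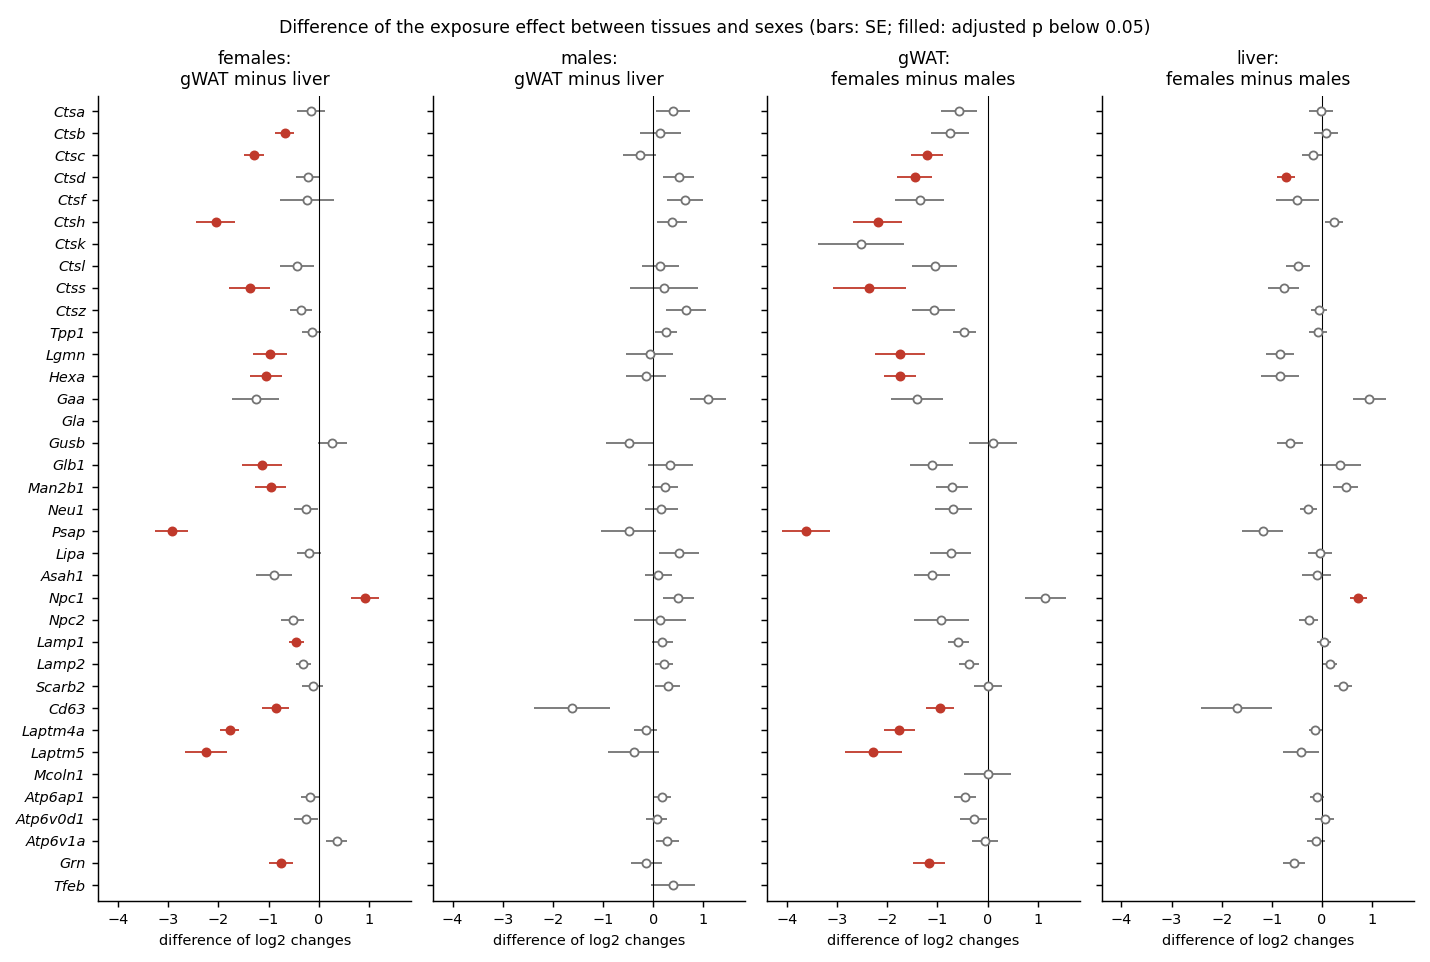
Difference of the exposure effect (log2, with its standard error) for each gene, as gWAT minus liver in females and in males and as females minus males in gWAT and in liver; filled points have an adjusted p below 0.05. Psap lies farthest to the left in the female gWAT comparisons, at -2.93 and -3.63, and the panel of gWAT against liver in males holds no filled point.

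Levels in control gWAT and control liver were set side by side as CPM, reads scaled to the library total, without a test, since the tables were normalized separately. In females 14 of 33 genes had all gWAT controls above all liver controls and 2 had them below, against 45.2% and 16.0% of all genes. In males the counts were 15 above and 7 below of 32, against 47.2% and 16.2%. Under a second scaling (TMM) the counts were 11 and 8 in females and 7 and 12 in males, so only genes that averaged at least 10 CPM and kept 1 order in both sexes under both scalings are named. Those higher in gWAT were Hexa, Psap, Npc2, Cd63, Laptm4a, Laptm5 and Atp6ap1, and those lower were Lipa and Npc1.

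Psap ranged over 2829 to 4693 CPM in control gWAT and 226 to 276 in control liver of females, a ratio of medians of 15.9. In males it ranged over 1757 to 2709 in control gWAT and 52.6 to 246 in control liver. Npc1 ranged over 9.53 to 26.6 CPM in control gWAT and 82.6 to 114 in control liver of females, a ratio of 7.64 in favour of liver. Psap thus stood higher in fat and Npc1 higher in liver, with no overlap of the control libraries.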

How the data were processed

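The deposited tables, 1 for each tissue and sex, hold normalized counts (a signal), which by their headers and whole-read steps are the authors' gene read counts divided by 1 DESeq2 size factor per library. The authors' own log2 fold changes, with nicotine on top, and their p-values and adjusted p-values stand beside them, per the file headers. The tools named in the submitters' processing notes are STAR, DESeq2 and cutadapt, and the genome is mm10. Tool versions, how reads were counted, the annotation and whether strand was used: not given in the sources used here. For 8 of the 36 genes, including Hexa, Npc1, Grn and Ctsb, exons overlap a gene on the opposite strand, and their reads cannot be told apart without strand. No column of values was left without a sample or group (0 columns).

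From the smallest step in each library's normalized counts, reads could be restored, with 100% of values whole within 0.1 reads in every library. Genes averaging at least 10 were tested table by table with limma's moderated test (eBayes, trend on) after a log2(normalized count + 1) transformation. Effects in 2 tables were compared by an interaction contrast over genes with that mean in both. The design assumed 5 male gWAT controls and 4 columns were used. Tests ran in R 4.3.3 with DESeq2 1.42.0, edgeR 4.0.16 and limma 3.58.1, and joins and plots in Python 3.11.15 with matplotlib 3.10.9, NumPy 2.4.6 and pandas 2.3.3. The code was tested on simulated data.

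The genes and lists were chosen with earlier results of these data known. Values per library are given for genes past the threshold in a table or interaction, for those with an unadjusted p below 0.01 and for the 2 of smallest p in each table; of the further lysosomal genes, those past the threshold and the 2 of smallest p per table are named. Some of these further genes are not reported here by name. GENCODE M21 (GRCm38) gave gene positions, transcript lengths and GC content. Promoter windows were RefSeq's, and 4 genes had none matched. Same replicate numbers were not treated as pairs, since nothing in the labels ties them and their correlations were not all over 0.1.

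Also run were edgeR and DESeq2 on the recovered reads, pseudocounts of 0.5 and 5, a minimum mean of 50 and none, quantile-normalized values, a block for the replicate number, and fits lacking 1 library at a time. Chosen after seeing the data were scaling to total reads (CPM), removal of the dependence on length and GC in female gWAT (a spline of 4 degrees of freedom), and fits lacking sets of libraries that held other tissues' transcripts or stood apart.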

Additional observations from a re-analysis of the deposited data

Results flagged for a closer look

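Of 288 sets of 4 or 5 libraries (36 genes by exposure group and table), 24 had 1 library far from the others, where chance gives about 1 in 20 such sets. In female gWAT these were Ctss in control 4 (693, others 217 to 316), Ctsz in nicotine 3 (77.3, others 44.7 to 49.3), Lgmn in nicotine 1 (55.0, others 21.6 to 30.0) and Gusb in control 5 (82.8, others 36.3 to 47.6). In male gWAT, nicotine 3 stood apart for Ctss (3067), Ctsl (3337), Ctsk (145) and Lipa (162), and the same library held the lipid-associated macrophage sum of 3725. In the male gWAT controls, control 1 stood apart for Npc2 (4514, others 920.4 to 1348) and Cd63 (2276, others 1268 to 1392), and control 4 for Ctsl (1904), Gusb (95.5) and Grn (295).

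In female liver, low values stood apart for Ctsd in nicotine 4 (229, others 302 to 327) and Lipa in control 1 (426, others 483 to 506). High values stood apart for Gusb (44.2) and Tfeb (19.7, others 6.44 to 9.30) in nicotine 1 and for Ctsl in control 3 (2085). In male liver, Psap was low in control 3 (94.8, others 389 to 476) and high in nicotine 5 (618, others 509.9 to 539). The other male liver values were Gaa at 17.9 in nicotine 4, Asah1 at 18.9 in nicotine 3, Lamp2 at 1405 in nicotine 2 and Ctsb at 658 in control 5.

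The exposure effect differed between groups of animals by the interaction test of limma for 28 gene and comparison pairs. In females, the log2 change in gWAT minus that in liver was -2.93 for Psap, -2.25 for Laptm5, -2.05 for Ctsh, -1.78 for Laptm4a, -1.37 for Ctss, -1.29 for Ctsc, -1.14 for Glb1, -1.06 for Hexa, -0.97 for Lgmn, -0.96 for Man2b1, -0.86 for Cd63, -0.75 for Grn, -0.68 for Ctsb, -0.45 for Lamp1 and 0.93 for Npc1. In gWAT, the log2 change in females minus that in males was -3.63 for Psap, -2.36 for Ctss, -2.28 for Laptm5, -2.19 for Ctsh, -1.76 for Laptm4a, -1.75 for Hexa, -1.75 for Lgmn, -1.45 for Ctsd, -1.21 for Ctsc, -1.17 for Grn and -0.95 for Cd63. In liver, it was 0.72 for Npc1 and -0.72 for Ctsd.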

How the results depend on the processing

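In female gWAT the count of genes passing, 15, was 12 to 18 with 1 library left out, 16 with edgeR, 19 with DESeq2 and 27 with scaling to total reads (CPM), where the median log2 change was -0.90. In female liver the count of 1 was 0 to 2 with 1 library left out and 0 without control 4 and nicotine 5. In male liver the count of 0 was 1 with DESeq2. edgeR called 2558, 0, 300 and 3 genes over the whole tables of female gWAT, male gWAT, female liver and male liver, DESeq2 called 2984, 0, 337 and 186, and limma 2656, 0, 301 and 5.

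For gWAT against liver in females the count of 15 was 9 to 16 with 1 library left out. For females against males the count was 7 to 13 in gWAT (11 with all libraries) and 0 to 2 in liver (2 with all libraries). The liver count was 1 with no filter and 1 without male liver nicotine 1 and 5. For control gWAT against control liver with TMM scaling, genes below numbered 8 in place of 2 in females, and in males genes above numbered 7 in place of 15 and genes below 12 in place of 7. The causes were not tested.

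With the replicate number as a block, 13 genes passed in female gWAT, 1 in female liver, 0 in male liver and 15 in the female comparison of gWAT with liver. Correlations of same-numbered libraries ran from -0.277 to 0.173 in female gWAT, from -0.0857 to 0.0700 in female liver and from -0.130 to 0.0758 in male liver, so the numbers were not read as pairs. No paired analysis was possible for male gWAT because its control columns carry no number tied to a labelled sample. No log2 change of a gene that passed turned its sign under any alternative run.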
